A study of Mus musculus with 4 samples.

Results

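Many RNAs of a mammalian cell come from stretches of the genome between known protein-coding genes. Those that are long, spliced and without a clear reading frame are called long intergenic noncoding RNAs; some act on chromatin or on nearby genes, and for most no function is known. Many are made in a few tissues or stages of development only, and an array can follow them with probes against a stretch of the genome that has no gene name. The array used here carries such probes, each named by the interval it was designed for on the mouse genome build mm9, with the letter F or R for the strand.

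The members described here are the probes for short intervals, those whose end minus start is under 5000 bases, chosen by detection: the scanner software had to mark the probe as well above background on 2 of 2 arrays in at least 1 genotype group. Of 16181 probes with a strand-lettered interval, among 55681 probes that are not array controls, 3942 belong to short intervals, and 1829 of these (46.4%) passed. The members cover 992 of the 1525 short intervals. Because detection chose them, their presence on the arrays is not a finding, and a probe detected in a single group was kept through the group in which it is high.

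The RNA came from embryonic mouse kidneys at E13.5, of a hybrid of 129 and C57BL/6. Tamoxifen was given at E12.5, 24 hours earlier. It activates CreER, a Cre recombinase that is active only with this drug, and so deletes a floxed gene, here Sall1, the gene of a zinc finger protein of the nucleus that kidney formation needs. There were 2 arrays of control kidneys, whose titles name flox, and 2 arrays of Sall1 knockout kidneys, whose titles name CreER, and the treatment text names tamoxifen for both groups. The titles name CreER for the knockout group only, so the effects of CreER and of Sall1 loss cannot be told apart. Whether an array holds the RNA of 1 embryo or of several is not given, so p-values reflect only how far these samples spread. The kidneys were measured whole, so fewer cells of a type and less RNA per cell cannot be told apart.

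Values are the scanner's processed signals divided by the 75th percentile of the array and set to log2, so that 0 is a probe at that percentile. This percentile lay between 521 and 597 signal units, and no spot was saturated. The Sall1 probe read 1.79 and 1.81 in controls and 1.03 and 1.07 in knockouts, a log2 difference of -0.75 ± 0.059 (SE, 2 arrays per group, limma adjusted p = 0.162). Where this probe lies relative to the deleted part is not given, so it is a limited check of the labels. Of 10 kidney marker genes, 10 were above background. Genes of other organs were present too: 12 of 13 liver and gut genes were above background (Cdx2 was not), with a summed signal of 13.9 to 20.2 times the 75th percentile in control and 39.0 to 43.2 times in knockout kidneys. For 11 of 12 skeletal muscle genes above background (Ckm was not) the sums were 20.2 to 48.8 and 59.0 to 87.6. Sums for 8 of 8 matched erythroid genes were 914 to 1590 and 958 to 1730, for 6 of 6 macrophage genes 5.4 to 5.72 and 7.02 to 8.19, and for 6 of 6 neural genes 3.54 to 4.03 and 3.11 to 3.18. The sums of 17 nephron progenitor genes were 163 to 169 in control and 114 to 124 in knockout kidneys. The part of these cell types in the interval values was not tested.

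Short intervals were detected about as often as long ones: 46.4% of short-interval probes passed, against 46.6% of 12239 probes for intervals of 5000 bases or more and 74.8% of probes designed for RefSeq mRNAs. Per array, 49.0% and 47.8% of the 3942 short-interval probes were above background in the control kidneys and 48.4% and 43.2% in the knockout kidneys, so that knockout replicate 2 was the lowest. The share of all probes was lowest on that array as well, at 59.7% against 62.4 to 63.3% on the other arrays. Among the 1829 members, 1622 were above background on all 4 arrays, 159 on 3 and 48 on 2.

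The share that passed varied with interval length. It was 37.3% for intervals under 500 bases, 46.5% from 500 to under 1000, 56.0% from 1000 to under 2000 and 51.7% from 2000 to under 5000. The 992 member intervals measured 85 to 4970 bases with a median of 695.5, and 602 of them were under 1000 bases. By strand, 46.7% of F and 46.0% of R probes passed. By chromosome the share ran from 37.4% on chromosome 16 to 57.6% on chromosome 17.

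Most short intervals were covered by several probes, which share a source and are not replicates: 1113 of the 1525 had 3 probes, 191 had 2 and 221 had 1. Of the 1113 intervals with 3 probes, 311 had 3 members, 152 had 2, 300 had 1 and 350 had none. Probes of the same interval often differed in brightness, with a median range of 1.33 log2 units over the 260 intervals with 3 probes above background on all 4 arrays. The widest range was 10.09, at chr3:96215885-96218756 (R). For this reason a probe's brightness is not taken as the amount of an RNA, and levels are given only as a description.

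The brightest member probes were steady between the groups. The brightest of all, for the 795 bases of chr19:5801802-5802597 (R), read 7.88 and 7.80 in controls and 7.81 and 7.78 in knockouts, and the groups overlapped. Its log2 difference was -0.048 ± 0.065, and the other probes of that interval differed by -0.076 and -0.023. The next brightest lay in chr17:17481706-17482457 (R), with a difference of -0.032 ± 0.084, in chr6:116123643-116124550 (F), with -0.073 ± 0.083 and -0.12 ± 0.068, and in chr17:39982023-39983277 (F), with 0.05 ± 0.06. None of these 5 probes had an adjusted p below 0.529 by limma.

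Most members differed little between control and knockout kidneys. Among the 1622 members above background on all 4 arrays, the median size of the log2 difference between the groups was 0.12, beside 0.13 between the control arrays and 0.14 between the knockout arrays. The first is a difference between means of 2 arrays and the others between single arrays, so the first would be smaller if nothing but replicate spread were present. The median difference was -0.0074, the 5th and 95th percentiles were -0.35 and 0.37, and 71.1% lay within 0.2 of 0. The long intervals had nearly the same spread, with a median size of 0.11 between groups, 0.13 between control arrays and 0.13 between knockout arrays. For all probes the corresponding values were 0.1, 0.095 and 0.091.

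No member passed the test. Without regard to size, 327 members (17.9%, beside 20.5% of all probes) had both knockout values above both control values, and 434 (23.7%, beside 27.5%) had both below. At a limma adjusted p under 0.05, 0 members were higher and 0 were lower, with 0% called over the 34253 probes tested in each direction, and the smallest adjusted p of a member was 0.118. At an unadjusted p under 0.05, 99 members were higher (5.41%, beside 6.15% of all probes) and 136 were lower (7.44%, beside 5.91%). With a trended and robust variance prior, 5 members were called higher (0.273%, beside 0.531%) and 8 lower (0.437%, beside 0.628%); 1 of the 8 was above background in the control kidneys only. After normexp background correction 2 members were called higher (0.109%, beside 0.0905%) and 0 lower (0%, beside 0.0847%). With 2 arrays a group, an exact permutation test of a single probe cannot give a p below 0.333.

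As a description without a test, 41 members were at least 1.5-fold higher in the knockout kidneys with both knockout values above both control values, and 40 were at least 1.5-fold lower with both below. These are 2.24% and 2.19% of the members, beside 2.36% and 1.14% of all probes. The split depended on the scaling: it was 28 higher and 53 lower after quantile normalization (2.0% and 1.44% of all probes), 32 and 49 after median centring (2.04% and 1.38%), and 5 and 3 after normexp correction (0.598% and 0.201%). Of these 81 members, 30 were above background in 1 group only, so their measured fold is against signals that were not above background. Among all members seen in 1 group only, the lower bound on the fold reached 1.5-fold for 5 in the control and 10 in the knockout kidneys. Of the 1622 members above background on all 4 arrays, 298 (18.4%, beside 20.5%) were higher and 375 (23.1%, beside 27.6%) lower without overlap at any size. At 1.5-fold, 23 were higher (1.42%, beside 1.62% of all such probes) and 13 lower (0.801%, beside 0.624%).

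**Figure D1:**
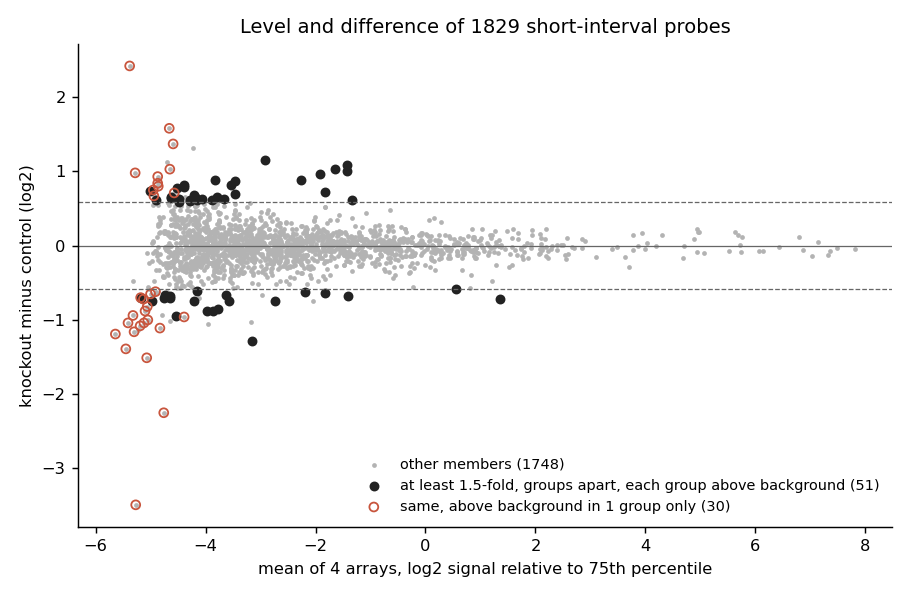
Each point is one of 1829 member probes, with its mean log2 level over the 4 arrays on the horizontal axis and its log2 difference, knockout minus control, on the vertical axis; dashed lines mark 1.5-fold. The filled black points are 51 members at least 1.5-fold apart without overlap and with an array above background in each group, and the open circles are 30 such members above background in 1 group only, which lie at the dim end.

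The probes of an interval give a check that does not rest on a single spot. The 81 members lie in 73 intervals, of which 43 have 2 or 3 members. As measured, at least 2 members differed 1.5-fold in the same direction without overlap in 6 intervals, among 215 with 2 members and 311 with 3. This count was not made for long intervals, so it cannot be read as particular to short ones. In 3 of the 6 the knockout values were higher and in the other 3 lower. In 1 of the latter, on chromosome X, a member has only a bound on its fold, which is under 1.5-fold. The 6 intervals are described next, with the members called under the trended and robust prior.

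The interval chr4:149445201-149445902 (F), of 701 bases, had the smallest adjusted p of any member. Averaged over its 3 probes, it read -2.08 and -2.09 in controls and -1.24 and -1.10 in knockouts. Both knockout arrays lay well above both controls, and the controls were nearly equal. The 3 probes differed by 0.72 ± 0.093, 1.0 ± 0.12 and 1.03 ± 0.061, a mean of 1.89-fold. Their limma adjusted p ran from 0.118 to 0.214, and from 0.00381 to 0.0267 with the trended and robust prior. The mean log2 difference was 0.66 after normexp correction and 0.85 to 0.99 without 1 array. This interval lies inside a long one, chr4:149383134-149451259, whose F probes above background differed by 0.35 (2 probes) and whose R probes by 0.033 (6 probes).

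A pair of intervals were higher in the knockout kidneys with a wider spread between replicates. In chr12:74140325-74142695 (F), of 2370 bases, the mean of 3 probes was -3.39 and -4.38 in controls and -2.73 and -3.10 in knockouts. The control replicates were about as far apart as the group means, but the groups did not overlap. The probes differed by 0.87, 0.89 and 1.15, a mean of 1.96-fold, with limma adjusted p from 0.249 to 0.52. The mean log2 difference was 0.97, but 0.47 without control replicate 2, 1.46 without control replicate 1 and 0.47 after normexp correction. The 6 F probes above background of the surrounding long interval, chr12:74135916-74142780, differed by 0.59.

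In chr3:137742666-137744470 (F), of 1804 bases, the mean of 2 probes was -2.35 and -2.75 in controls and -1.60 and -1.66 in knockouts, without overlap. The probes differed by 0.88 ± 0.29 and 0.96 ± 0.11, a mean of 1.89-fold, with limma adjusted p of 0.406 and 0.21. The second probe was called with the trended and robust prior (0.0122). After normexp correction the mean log2 difference was 0.6. The surrounding long interval chr3:137736327-137752677 differed by 0.62 over its 4 F probes above background. The means of this interval and of the one on chromosome 12 were highest in knockout 1, then knockout 2, control 1 and control 2. The sums of the skeletal muscle genes fell in this order (87.6, 59.0, 48.8 and 20.2). So did those of the macrophage genes (8.19, 7.02, 5.72 and 5.4) and of 10 stroma genes (151, 146, 136 and 131), so the order is not particular to muscle. The second probe did not follow it, with -1.56 in knockout 1 and -1.32 in knockout 2. The share of RNA of these cell types in the values was not tested.

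A single-probe interval, chr18:5951953-5952386 (F), of 433 bases, read -2.03 and -1.89 in controls and -0.93 and -0.82 in knockouts. The groups were far apart compared with either pair of replicates. The log2 difference was 1.09 ± 0.087, with a limma adjusted p of 0.165, of 0.00381 with the trended and robust prior and of 0.0355 after normexp correction. No other probe of this interval exists on the array to set beside it.

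**Figure D2:**
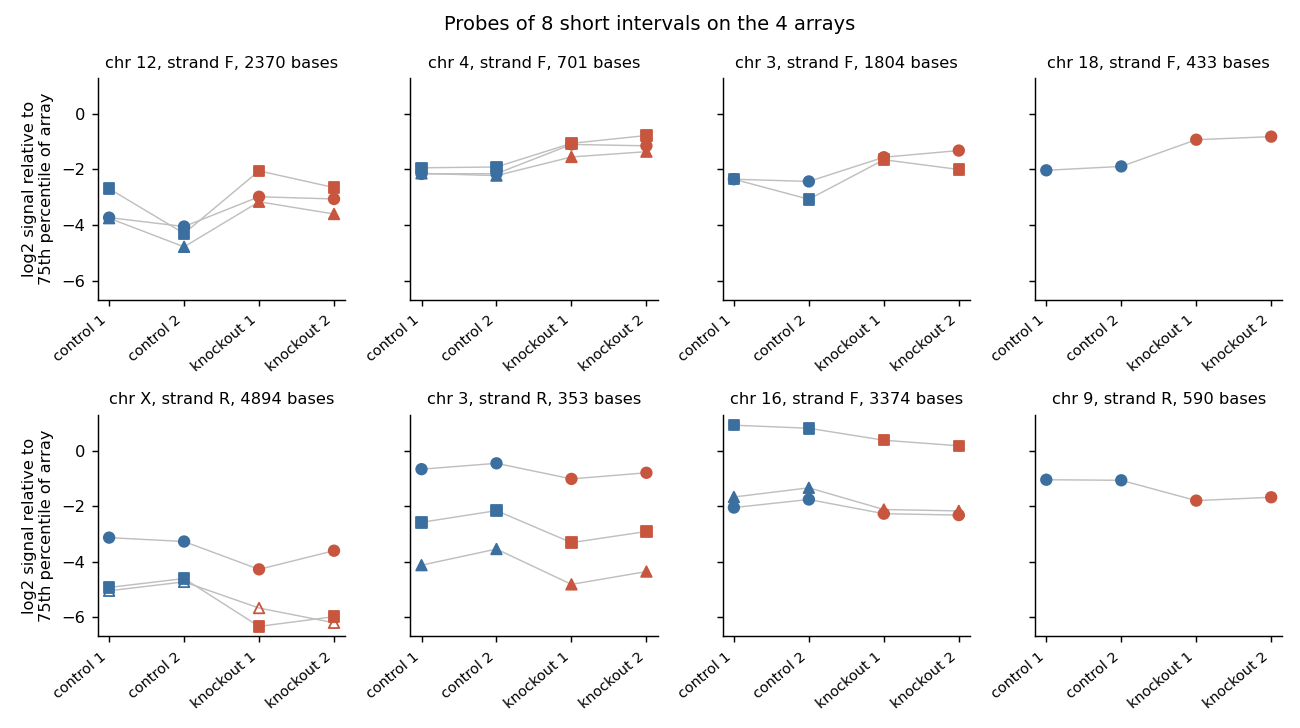
Log2 signal, with 0 at the array's 75th percentile, for the probes of 8 short intervals on the 2 control (blue) and 2 knockout (red) arrays; each marker shape joined by a line is 1 probe, and open markers are a probe that was not a member. The top row shows intervals higher in the knockout arrays, by a mean of 0.92 to 1.09 on the log2 scale, and the bottom row intervals lower there, by a mean of -0.54 to -0.68 apart from chromosome X, where the square is a probe above background in the control arrays only and the open triangle a probe near background.

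Of the 3 intervals with lower knockout values, chrX:18810088-18814982 (R), of 4894 bases, rests mainly on 1 probe. This probe was above background on all 4 arrays and read -3.13 and -3.27 in controls and -4.27 and -3.60 in knockouts, without overlap. It differed by -0.74 ± 0.26, with a limma adjusted p of 0.411. The second member was above background in the control arrays only, so that its fold is a bound, at least 1.16-fold higher in the control kidneys. The mean of both members, -1.06 as measured, was -0.18 after normexp correction. The remaining probe was above background on 1 control array only and is no member.

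In chr3:60292527-60292880 (R), of 353 bases, the mean of 3 probes was -2.46 and -2.05 in controls and -3.04 and -2.69 in knockouts. All 3 probes had both knockout values below both control values, by -0.34 ± 0.12, -0.74 ± 0.22 and -0.75 ± 0.28. This is a mean of 1.53-fold, with limma adjusted p from 0.383 to 0.421, and the mean log2 difference was -0.29 after normexp correction.

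The third lay on chromosome 16, where a second short interval beside it was lower too. In chr16:43635730-43639104 (F), of 3374 bases, 3 probes averaged -0.94 and -0.77 in controls and -1.34 and -1.44 in knockouts, and differed by -0.39 to -0.64. In chr16:43623175-43624069 (F), of 894 bases, 3 probes averaged 0.87 and 0.86 in controls and 0.36 and 0.31 in knockouts. In both intervals every probe had its knockout values below its control values, and the replicates of the second were close together. The mean difference was -0.54 in each, or 1.45-fold, and -0.39 and -0.49 after normexp correction. limma's adjusted p was 0.271 to 0.395 in the first interval and 0.21 to 0.214 in the second. With the trended and robust prior, 1 probe of the first and 3 of the second were called. The long interval chr16:43623581-43642715 that covers this stretch differed by -0.49 over 9 F probes and by -0.26 over 4 R probes above background.

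A similar group lay on chromosome 10. The 3 probes of chr10:66627543-66629331 (F), of 1788 bases, averaged -0.36 and -0.46 in controls and -0.85 and -0.95 in knockouts, a difference of -0.48 or 1.4-fold. Limma gave them adjusted p from 0.21 to 0.314, and the trended and robust prior called 2 of them. The 3 probes of the nearby chr10:66640530-66644032 (F) averaged -2.09 and -2.14 in controls and -2.61 and -2.39 in knockouts, a difference of -0.38, and those of chr10:66574421-66575488 (F) differed by -0.20. No probe of these 3 intervals overlapped between the groups, and their means after normexp correction were -0.38, -0.19 and -0.048. In the long interval over the whole stretch, chr10:66559716-66647841, the F probes above background differed by -0.34 and the R probes by -0.064.

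A further single-probe interval, chr9:114416254-114416844 (R), of 590 bases, read -1.05 and -1.07 in controls and -1.80 and -1.68 in knockouts. Its log2 difference of -0.68 ± 0.072 had a limma adjusted p of 0.21, and of 0.0175 with the trended and robust prior. Another interval, chr4:146890596-146891297 (F), was lower by a mean of -0.49 over 3 probes, which read -2.56 and -2.57 in controls and -3.02 and -3.09 in knockouts, with a limma adjusted p of 0.269 to 0.376; after normexp correction the mean was -0.23.

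In other intervals with a large difference only 1 probe differed by 1.5-fold, and in some of them this came from 1 array. One probe of chr5:33773382-33776739 (R) read -3.44 and -1.58 in controls and -3.78 and -3.80 in knockouts, so that its difference of -1.28 ± 0.68 came from control replicate 2. The other probes of that interval differed by -0.21 and -0.077. In the same way, 1 probe of chr19:9060613-9060851 (F) read 2.24 in control replicate 2 and 0.97 to 1.17 on the other arrays, while its other probes were higher in the knockout arrays by 0.27 and 0.13. In chr12:76759861-76760240 (R), 1 probe differed by -0.88 ± 0.076 with replicates close together and the other by -0.19 ± 0.063. Both were lower without overlap. In chr17:86092322-86093123 (F) the differences were -0.67, -0.47 and -0.052, each without overlap. The mean of these 3 probes was -0.40, and -0.14 after normexp correction.

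A few more members complete those with the largest differences. A probe of chr16:94775095-94775634 (F) differed by 0.82 ± 0.30, and its other probes were not above background on any array. A probe of chr8:108120629-108123201 (F) differed by 0.78 ± 0.16, and the other member of that interval by -0.043 ± 0.13. The single probe of chr5:113772057-113772146 (F), an interval of 89 bases, differed by -0.88 ± 0.28. All 3 had limma adjusted p of 0.309 or more.

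Of the 48 members above background on 2 arrays, 36 were seen in the control kidneys only and 12 in the knockout kidneys only. These are 1.97% and 0.656% of the members, beside 0.873% and 0.374% of all probes tested. Such a member has only a lower bound on its fold, taken as its mean in the brighter group against whichever was higher on each array of the other group, its own signal or the dimmest signal that counted as well above background. The bound was above 1 for 34 of the 36, with a median of 1.2 and 5 of at least 1.5-fold (0.273% of members, beside 0.0993% of all probes, whose median bound was 1.21). It was above 1 for 12 of the 12, with a median of 1.6 and 10 of at least 1.5-fold (0.547%, beside 0.257% and a median of 1.59). The dimmest signal that counted as well above background was higher in knockout replicate 2, at -4.80, than on the other arrays, at -5.24 to -5.15. Members were also dimmer than all probes tested, with a median level of -2.9 against -1.03. The part of these limits in the split of 36 and 12 was not tested.

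Where another probe of such an interval was a member, its difference is given as well. The largest bound in the control group was at least 2.74-fold, for a probe of chr3:93151210-93151777 (F) that read -4.06 and -2.99 in controls and -7.19 and -6.84 in knockouts. The other probes of that interval were not above background on any array. A probe of chr1:94077196-94077860 (F) was at least 2.54-fold higher in the control group, but read -2.41 in control replicate 1 and -4.86 in replicate 2, and the other member of that interval differed by -0.042. The remaining bounds named in the control group were at least 1.91-fold at chr8:71890408-71893465 (R), at least 1.63-fold at chr17:84359207-84360270 (R) and at least 1.59-fold at chr1:72297489-72298058 (R). On chromosome 17 a probe above background on 1 knockout array only differed by 0.7, and another, above background on no array, by -0.37. The other probe of the interval on chromosome 1 was above background on no array and differed by 1.42.

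In the knockout group the largest bound was at least 2.4-fold, for a probe of chr3:152810906-152815072 (R) that read -5.13 and -5.78 in controls and -4.30 and -3.45 in knockouts. The other probes of that interval were not above background on any array. A probe of chr2:67410825-67411407 (F) was at least 2.38-fold higher, reading -5.48 and -5.08 in controls and -3.80 and -4.02 in knockouts. The other member of that interval differed by 0.20 ± 0.18. Bounds of at least 2.04-fold were found at chr5:15184252-15184923 (F) and chr9:27153416-27153677 (F), where the other members differed by 0.35 ± 0.16 and 0.18 ± 0.12. At chr6:28172545-28176170 (R) the bound was at least 1.63-fold, and the other member differed by 0.1 ± 0.17 with overlapping groups.

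Small differences were partly shared between probes of the same interval. Over 976 pairs of members above background on all 4 arrays, in 456 intervals, the log2 differences of the pair had a Pearson's r of 0.55, and 71.2% had the same sign. The pairs share their arrays, and a pair of an interval with 3 members shares probes with other pairs. Without the 34 pairs that hold a member 1.5-fold apart, 9 of which held a pair of such members, r was 0.49. The 6558 pairs of the long intervals had an r of 0.36 and 60.8% of the same sign. Of these, 183 held a probe 1.5-fold apart, and 28 of the 183 held a pair of such probes. Of the 260 short intervals with 3 probes above background on all 4 arrays, 157 (60.4%) had the same sign in all 3, beside 42.2% of 346 long intervals. The difference between short and long intervals was not tested.

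**Figure D3:**
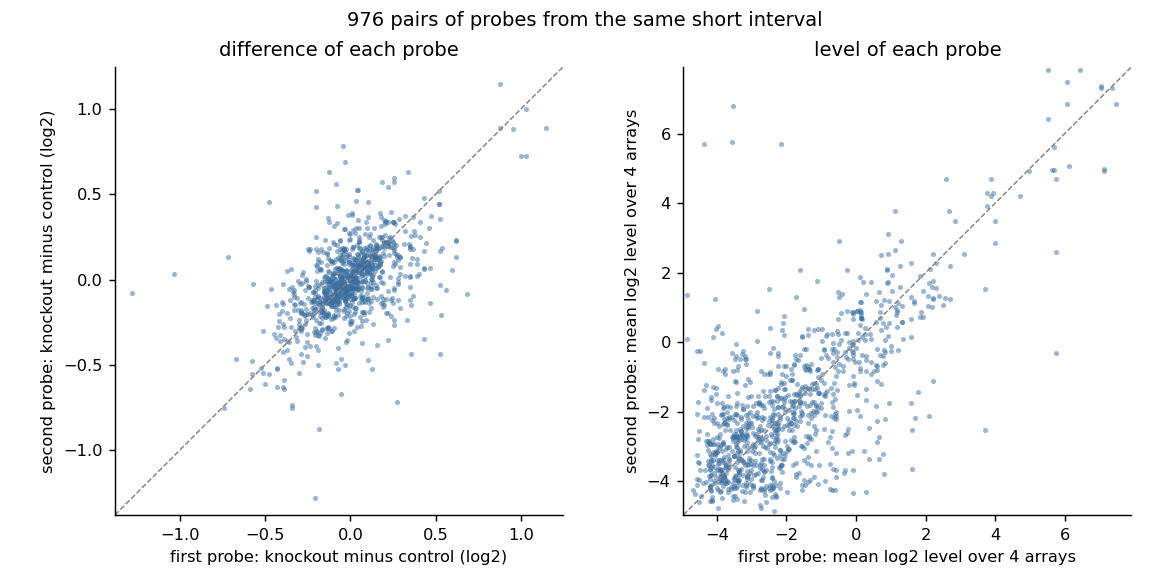
Each point is a pair of probes of the same short interval, 976 pairs in all, with one probe on each axis; the left panel shows the log2 difference, knockout minus control, and the right panel the mean log2 level over 4 arrays, with dashed lines of equality. The differences scatter about the line (r = 0.55), with 71.2% of the pairs of the same sign. Levels had a higher r (0.73), although those of the same interval can be several log2 units apart.

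More intervals had all 3 probes below the controls than above. In 31 of the 260 intervals (11.9%, beside 6.93% of 606 short and long intervals together) each of the 3 probes had both knockout values below both control values, and in 11 (4.23%, beside 4.62%) both above. In the long intervals the counts were 17 higher and 11 lower of 346. The balance depended on the background correction and the scaling: it was 18 higher and 18 lower after normexp, with 22 and 8 in the long intervals. It was 13 and 35 after quantile normalization (long intervals 15 and 15), 7 and 47 after median centring (13 and 20), and 11 and 33 in the deposited value table (17 and 12). With 1 array left out there were 28 to 33 higher and 49 to 59 lower, since fewer values then have to lie apart.

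Many member intervals overlapped other detected intervals of the array. Of the 992 member intervals, 57.7% overlapped another detected interval with the same strand letter, 58.5% one with the opposite letter, and 53.7% lay inside a long interval. Over 483 pairs of intervals that lay apart but within 50 kb on the same strand letter, the differences had an r of 0.32 and 59.4% had the same sign. Over 307 such pairs on opposite letters r was 0.038 and 49.2% had the same sign. For overlapping pairs r was 0.37 on the same letter (521 pairs) and 0.092 on opposite letters (459 pairs). The pairs share their arrays, and where each probe lies in its interval is not given, so probes of overlapping intervals may be for the same sequence.

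With gaps of up to 50 kb allowed, there were 40 runs of at least 3 short member intervals on the same strand letter, which held 155 intervals. All intervals were lower in 8 of these runs and higher in 7. Probes of the same interval, and near intervals on the same strand letter, tended to differ alike (r of 0.55 and 0.32, as given above). In 8 runs every member probe differed in the same direction, 5 lower and 3 higher, a count not made for long intervals. It was noticed after the values were seen and was not tested.

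The run of this kind with the most intervals lay on chromosome 3, strand R, from 30052149 to 30108595, with 17 of 17 probes lower over 6 intervals. The interval means differed by -0.20 to -0.34 with a median of -0.28, or -0.11 after normexp correction. In chr3:30059174-30060808 the mean of 3 probes was -0.27 and -0.24 in controls and -0.60 and -0.58 in knockouts, and in chr3:30100736-30101280 it was -1.38 and -1.37 against -1.68 and -1.69. The groups were apart and the replicates close in both. In chr3:30052149-30052393 knockout replicate 1, at -3.79, lay next to the controls at -3.77 and -3.64, and replicate 2 was at -4.30.

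Of the other 7 runs, 3 had groups that did not overlap in any interval. On chromosome 1, strand F, 15 of 15 probes were higher over 5 intervals from 139795171 to 139857204, with interval means of 0.10 to 0.22. In chr1:139822286-139822985 the values were 1.55 and 1.61 in controls and 1.77 and 1.81 in knockouts. On chromosome 5, strand F, 9 of 9 probes were lower over 3 intervals from 111538420 to 111603075, by -0.13 to -0.21. On chromosome 1, strand F, 7 of 7 were higher over 3 intervals from 163527603 to 163529312, by 0.15 to 0.24.

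In the remaining 4 runs some interval means overlapped between the groups. On chromosome 2, strand F, 6 of 6 probes were higher over 3 intervals from 67410825 to 67412959, with interval means of 0.16 to 0.78; the largest includes the probe above background in the knockout arrays only. On chromosome 14, strand F, 7 of 7 were lower from 21460230 to 21463270, by -0.10 to -0.17. On chromosome 7, strand F, 4 of 4 were lower from 129295545 to 129300406, by -0.081 to -0.52. On chromosome 8, strand R, 4 of 4 were lower from 19759348 to 19800790, by -0.022 to -0.67. The medians of these last 2 runs, -0.26 and -0.18, were 0.0074 and 0.0038 after normexp correction. The first was -0.49 without knockout replicate 1 and -0.027 without knockout replicate 2, and the second -0.36 without control replicate 1. That of the run on chromosome 2, 0.21, was 0.74 without control replicate 1, 0.13 without control replicate 2, 0.09 without knockout replicate 1 and 0.32 without knockout replicate 2, and that of the run on chromosome 14, -0.16, was -0.057 without control replicate 1.

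**Figure D4:**
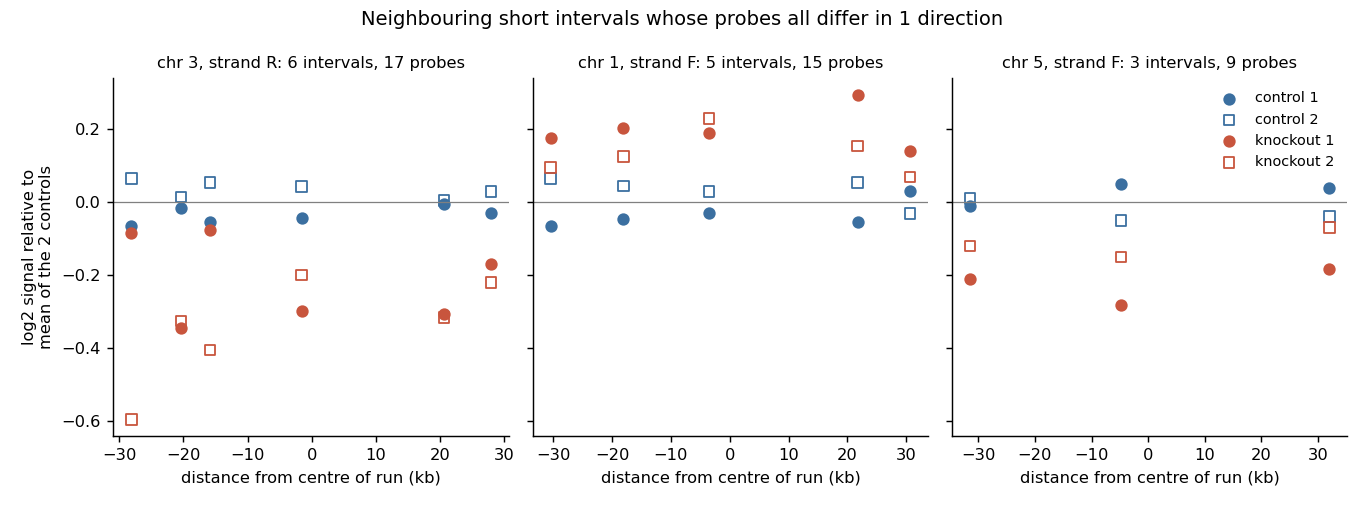
Interval means over probes on each array, as log2 signal relative to the mean of the 2 control arrays, by distance in kb of the interval centre from the centre of the run; blue marks control and red marks knockout arrays, filled circles replicate 1 and open squares replicate 2. The 6 intervals on chromosome 3 and the 3 on chromosome 5 lie below the controls in both knockout arrays and the 5 on chromosome 1 above them, although the gap is small for some intervals.

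The values next to the limits of the rule are given as a description. Just inside the length limit, the intervals of 4970, 4928, 4894, 4885 and 4875 bases had mean differences of 0.20, 0.22, -1.06, -0.013 and -0.042. Just outside, the detected intervals of 5025, 5042, 5050, 5054 and 5075 bases had -0.018, -0.01, 0.058, -0.30 and 0.043. At the detection limit, the dimmest member, in chr11:31648453-31648952 (R), had a mean level of -5.64 over the 4 arrays, and the brightest short-interval probe left out, in chr6:36790208-36792056 (R), had -4.36 and was above background on 2 arrays of different groups.

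The coding genes nearest to these intervals were not analysed here, nor whether each interval lies outside known genes, because no gene coordinates of build mm9 were used. Sequences of the probes and of the intervals were not used either.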

How the data were processed

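The genotype in the labels gave the groups, and accession order the replicate numbers. Agilent Feature Extraction 10.7.3.1 wrote the deposited scanner files (array design 028005); the processed signal used is a linear intensity, with background corrected inside each array, per the file headers. The same intensity stands in the deposited value table, where 100% of 55249 single-spot probes were equal within 1%. Signals were divided by the 75th percentile of non-control spots of each array and set to log2 here; the deposited files hold no log2 values of this kind. Marked outlier spots were left out.

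The 34253 probes that met the detection rule, short intervals or not, were fitted probe by probe in R 4.3.3 by limma 3.58.1 (eBayes on lmFit, two-sided test, 2 residual and 1.82 prior degrees of freedom), with Benjamini-Hochberg adjustment over all of them. Limma was tested on simulated data with independent normal errors and changes larger than those of most members named here. That test does not show how smaller changes are called. Gene symbols came from a RefSeq table of assembly GRCm38.p6 (26413 probes matched). Members, lists and tests were chosen with earlier results of these data known. Members named are the 10 with the largest difference in each direction among those on all 4 arrays without overlap. The 5 largest bounds in each direction, the 5 brightest, the 3 smallest unadjusted p in each direction and those at the limits are also named. Of the intervals whose 3 probes all lay apart, 31 lower and 11 higher, only some are named. Members called under another variance prior, neighbouring intervals and the window of 50 kb were added after values were seen. The alternatives were normexp (offset 50, on the median spot signal), quantile normalization, median centring, other filters, a trended and robust prior, array weights, the deposited table and each array left out.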

Additional observations from a re-analysis of the deposited data

How the results depend on the processing

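With limma's default prior, 0 members and 0 of all probes were called; the counts were 2 and 60 after normexp correction and 13 and 397 with the trended and robust prior, and 7 of all probes had an adjusted p under 0.1. No probe was called in any fit without 1 array. The count of members at least 1.5-fold apart without overlap, 81, was 8 after normexp correction, 36 for members above background on all 4 arrays, 404 without a background filter, 19 at 2-fold and 113 to 150 without 1 array, where fewer values have to lie apart (150 without Sall1 knockout replicate 1). Over all probes the count, 808 higher and 391 lower, also fell, to 205 and 69 after normexp correction. It was 523 and 201 for all probes above background on all 4 arrays, and it rose in both directions without any 1 array. These changes were therefore not limited to members. Counts over all probes without a background filter and at 2-fold are not given, so those changes cannot be ascribed to members. Of 410 alternative values for 30 named probes, 402 kept their direction and side of the threshold and 0 reversed. The other 8 passed the threshold (2 after normexp, 6 with the trended and robust prior). Probes named for their difference had groups that did not overlap. Leaving out 1 array could therefore not reverse them, and this part of the tally is no check of their direction. Of 64 for the 8 runs whose probes all differed in 1 direction, 2 reversed: after normexp correction the run on chromosome 7 from 129295545 to 129300406 went from -0.26 to 0.0074, and the run on chromosome 8 from 19759348 to 19800790 from -0.18 to 0.0038. The cause was not tested. No paired analysis was possible because the labels number the control and the knockout samples differently.

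The 2 arrays per group, with 2 residual degrees of freedom, limit what can be called.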
